A study of Homo sapiens with 6 samples.

Results

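The genes described here carry signals of the transforming growth factor beta (TGF-beta) and bone morphogenetic protein (BMP) families. They are 40 genes chosen by symbol (ligands, antagonists, receptors, SMAD proteins, their regulators and the ID target genes), and each was found in the table of 18249 genes. The cells were TE-10, an established human line of esophageal squamous carcinoma epithelium. RNA-seq was made from 1 control library of TE-10 cells with normal METTL3 and from 2 libraries of TE-10 cells with stable short hairpin knockdown of METTL3, whose product methylates adenosine in mRNA to give N6-methyladenosine (m6A). The titles number the hairpins 1 and 2, and the libraries are called knockdown 1 and knockdown 2. m6A was mapped in TE-10 cells with normal METTL3 from 1 input library and 2 libraries enriched with m6A antibodies of different catalogue numbers, deposited as a single list of 15940 peaks. Whether the knockdown cells were pools or clones, and whether each library had its own culture, is not stated in the labels. The p-values rest on the spread between the 2 knockdown libraries, moderated by the spread over all genes. That spread may hold technical, hairpin and culture differences together, and these cannot be told apart.

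In this pathway a dimeric ligand binds type II and type I receptor kinases, which phosphorylate receptor SMADs. TGF-beta and activin act mainly through SMAD2 and SMAD3, and BMPs through SMAD1, SMAD5 and SMAD9. Each set joins SMAD4 and enters the nucleus. SMAD6, SMAD7, the SMURF ubiquitin ligases and the SKI, SKIL and TGIF1 corepressors hold the signal down. In squamous epithelium TGF-beta restrains growth and induces matrix and integrin genes, and BMP signals induce the ID genes, whose products block differentiation factors of the basic helix-loop-helix type.

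The promoters of the ID genes, which are direct BMP targets, are shown first because all 4 lay above the control in both knockdown libraries. The windows run from 250 bases before to 50 bases after the annotated start, in build GRCh38.p14 from RefSeq, printed 5′ to 3′ on the gene's strand. Capitals mark GTCT and its complement AGAC, the short element that SMAD proteins bind. ID1 is at chr20:31605039-31605338 on the plus strand, ID2 at chr2:8681806-8682105 on the plus strand, ID3 at chr1:23559452-23559751 on the minus strand and ID4 at chr6:19837120-19837419 on the plus strand. SMAD6, at chr15:66701986-66702285 on the plus strand, is added because it was the 1 member at least 1.5-fold from the control in both knockdown libraries, although not with median-of-ratios scaling, as given with its values.
ID1: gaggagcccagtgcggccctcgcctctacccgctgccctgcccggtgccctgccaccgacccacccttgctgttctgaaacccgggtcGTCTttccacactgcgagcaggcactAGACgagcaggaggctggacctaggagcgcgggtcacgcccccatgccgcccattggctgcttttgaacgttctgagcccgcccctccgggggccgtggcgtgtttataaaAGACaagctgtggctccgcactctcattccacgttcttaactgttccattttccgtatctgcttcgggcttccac
ID2: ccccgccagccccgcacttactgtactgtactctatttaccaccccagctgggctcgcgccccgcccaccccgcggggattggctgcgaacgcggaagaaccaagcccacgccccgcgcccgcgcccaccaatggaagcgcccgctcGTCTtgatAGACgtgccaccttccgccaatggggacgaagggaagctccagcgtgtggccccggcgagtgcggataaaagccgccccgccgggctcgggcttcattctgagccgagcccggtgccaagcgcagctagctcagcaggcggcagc
ID3: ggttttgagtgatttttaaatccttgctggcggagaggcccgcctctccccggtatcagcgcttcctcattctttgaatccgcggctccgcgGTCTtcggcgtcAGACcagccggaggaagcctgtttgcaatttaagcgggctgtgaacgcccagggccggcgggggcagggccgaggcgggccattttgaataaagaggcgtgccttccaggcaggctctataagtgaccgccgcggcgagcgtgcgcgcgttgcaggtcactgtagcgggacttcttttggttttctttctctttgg
ID4: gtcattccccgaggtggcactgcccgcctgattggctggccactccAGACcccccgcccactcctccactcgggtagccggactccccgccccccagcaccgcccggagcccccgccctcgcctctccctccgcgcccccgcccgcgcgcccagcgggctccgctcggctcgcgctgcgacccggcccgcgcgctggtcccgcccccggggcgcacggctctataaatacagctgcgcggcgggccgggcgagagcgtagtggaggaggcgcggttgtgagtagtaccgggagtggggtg
SMAD6: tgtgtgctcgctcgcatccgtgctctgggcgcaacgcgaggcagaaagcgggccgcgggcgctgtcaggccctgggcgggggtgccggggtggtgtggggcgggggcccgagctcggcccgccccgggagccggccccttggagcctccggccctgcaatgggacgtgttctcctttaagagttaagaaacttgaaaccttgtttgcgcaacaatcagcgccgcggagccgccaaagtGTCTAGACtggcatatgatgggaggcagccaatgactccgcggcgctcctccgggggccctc

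The ID1 window held 3 of these 4-base elements, ID2 2, ID3 2, ID4 1 and SMAD6 2. They are common letters, found on either strand in 84% of 34796 distinct promoter windows of the same length and in 31 of the 36 members with a window in the RefSeq table. In SMAD6 both elements touch and form the palindrome GTCTAGAC, from 12 to 5 bases before the start. That word was in 67 of the 34796 windows (0.193%), and of those 36 members only SMAD6 held it. GGCGCC, the GC-rich site of BMP-activated SMADs, was in 19.2% of all windows, in 14 of those 36 members and in none of the 5 shown. Sites outside the windows were not searched. These matches describe the letters of the windows and do not show binding.

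The deposited RNA-seq values have no stated unit, so levels are compared between libraries and not between genes. Where 3 values follow a gene below, their order is control, knockdown 1, knockdown 2. METTL3 itself was lower in both knockdown libraries (20.81, 8.35 and 4.99; limma difference -1.54, SE 0.327, unadjusted p = 0.00337, adjusted p = 1). All 15 squamous epithelial markers were at 1 or more in every library, while 9 of 11 fibroblast and all 6 endothelial markers stayed below 1. The macrophage marker CD68, the 1 immune marker above 1, was at 18.81, 7.88 and 9.93. A list of 14 genes of embryonic kidney or other cultured lines had sums of 34.06, 40.63 and 274.47. Of these 14, 4 were at 1 or more in the control and 10 in knockdown 2, with the cell cycle inhibitor CDKN2A at 0.04, 0 and 144.68, the homeobox gene HOXB9 at 0.03, 0.35 and 53.12, and the adaptor IRS4 at 0.05, 0.04 and 23.56. In the same list 7 genes were at least 2-fold higher in knockdown 2 and 1 was 2-fold lower, the cadherin gene CDH2 (14.24, 18.28 and 5.93), while the kidney factor PAX8 was at 4.11, 3.51 and 3.66. Knockdown 2 therefore stands apart, and every result is given for each knockdown library. In RNA from whole cultures, fewer cells of a type and less RNA per cell cannot be told apart.

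All 4 ID genes lay above the control with either hairpin, as did 11 of the 37 members tested (29.7%) and 28% of the 12375 genes tested. No ID gene passed the test over all genes. ID2 measured 8.85, 13.29 and 51.11. ID4 measured 3.71, 4.78 and 12.46. Both knockdown libraries lay above the control for these 2 genes, knockdown 1 by a little and knockdown 2 by several times more. ID3 was at 95.66, 128.24 and 160.54, also lowest in the control. ID1, the classic direct BMP target, was at 293.88, 355.09 and 321.02, so its higher knockdown library was knockdown 1. On the log2(value + 1) scale the differences in knockdown 1 were 0.27 for ID1, 0.54 for ID2, 0.42 for ID3 and 0.30 for ID4, and in knockdown 2 they were 0.13, 2.40, 0.74 and 1.51. These differences were above 0 in both libraries under quantile normalization and median-of-ratios scaling too.

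In limma the mean difference of ID2 was 1.47 (SE 0.703, unadjusted p = 0.0821) and that of ID4 was 0.91 (SE 0.499, unadjusted p = 0.12), each with an adjusted p of 1. For ID3 it was 0.58 (SE 0.275, unadjusted p = 0.08) and for ID1 0.20 (SE 0.266, unadjusted p = 0.482), in limma, again with an adjusted p of 1. The excess of ID2 and ID4 in knockdown 2 stands beside the higher embryonic kidney or cultured line list in that library, and the part of one in the other was not tested. In knockdown 1, where that list summed to 40.63 against 34.06 in the control, ID2 was 0.54 above the control and ID4 0.30.

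**Figure D1:**
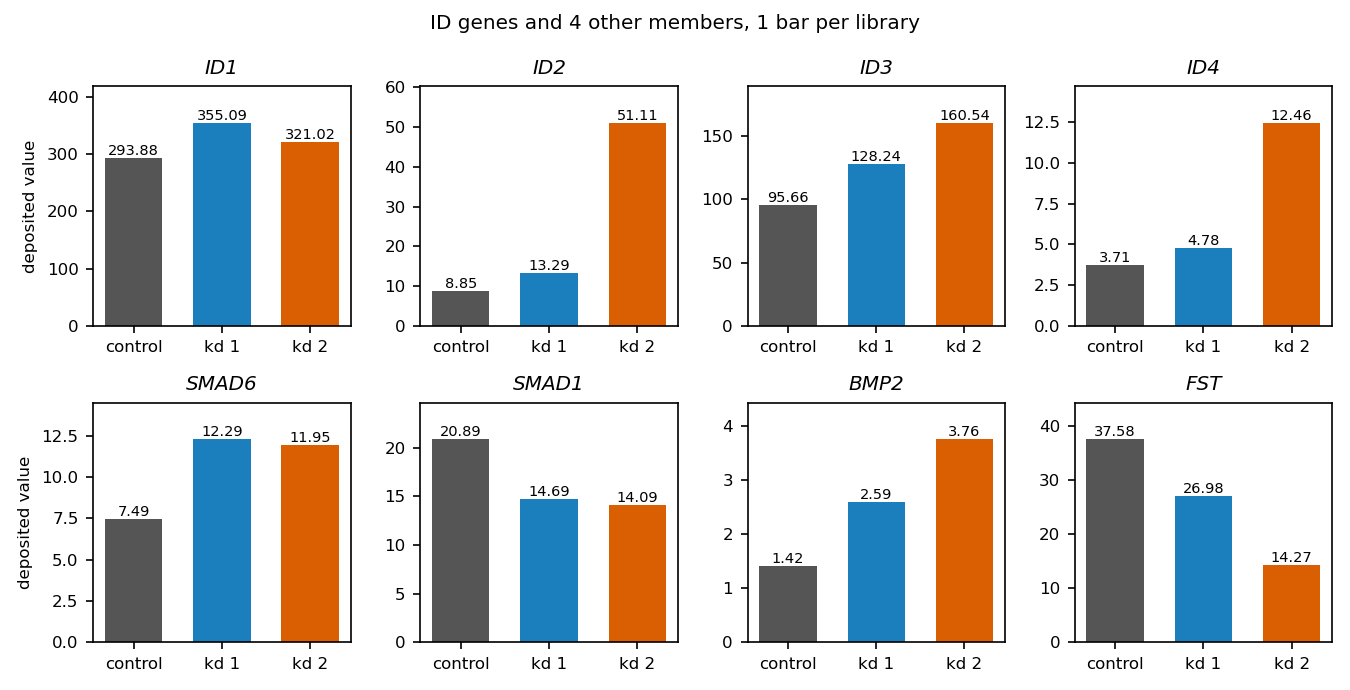
Deposited expression values (vertical axes, unit not stated, from 0) of the 4 ID genes and of SMAD6, SMAD1, BMP2 and FST in the control (grey), METTL3 knockdown 1 (kd 1, blue) and METTL3 knockdown 2 (kd 2, orange), 1 bar per library with no error bar. ID2 and ID4 are highest in knockdown 2 (51.11 and 12.46), SMAD6 has nearly the same value in both knockdown libraries (12.29 and 11.95), and FST is lowest in knockdown 2 (14.27).

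Across the members no gene passed limma's test at an adjusted p of 0.05, where 0% of the 12375 genes tested passed. At an unadjusted p under 0.05 in limma there was 1 of the 37 members tested, SMAD6, and 162 of all genes (1.31%). The spread in this test is that between both knockdown libraries (1 residual degree of freedom), moderated over all genes. The lone control is assumed to vary as the knockdown libraries do, so the lack of calls does not show that values were alike. In knockdown 1 a 2-fold difference or more was seen in 0 of the 37 members, beside 0.646% of all genes (0.242% higher and 0.404% lower). In knockdown 2 there were 4, of which 3 were higher (ID2, ID4 and SMAD9) and 1 lower (FST), beside 4.62% of all genes in either direction, 3.64% higher and 0.978% lower. SMAD9 passed the filter on low values only through knockdown 2, so its difference there was a condition of its being counted. Both knockdown libraries lay below the control for 15 members (40.5%), beside 30.4% of all genes, among them TGFB1, SMAD1, SMAD3, SMAD4, FST and 3 of the 4 BMP receptors. The median difference over the members was -0.04 in knockdown 1 and -0.04 in knockdown 2, beside -0.01 and 0.00 over all genes.

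**Figure D2:**
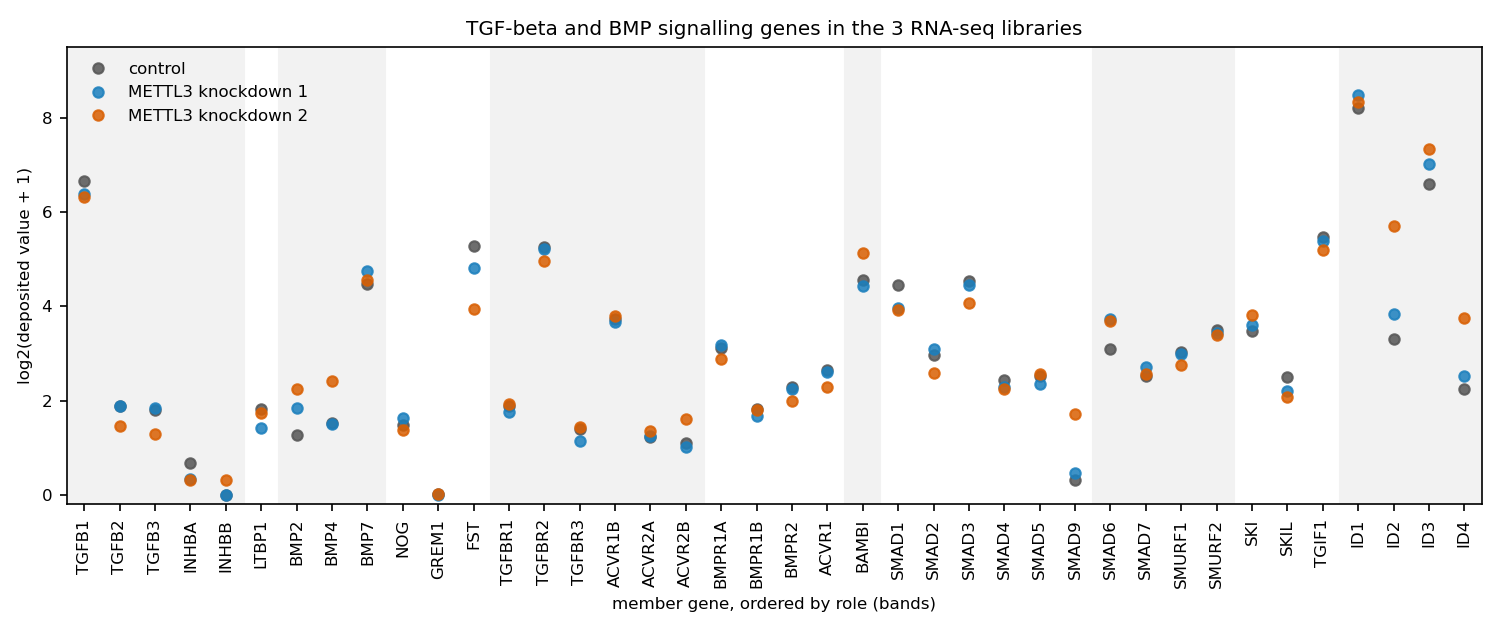
Level of the 40 members (horizontal axis, grouped by role in grey and white bands) as log2(deposited value + 1) in the control (grey), METTL3 knockdown 1 (blue) and METTL3 knockdown 2 (orange), 1 point per library. Most members have overlying points in the 3 libraries, the widest gaps are at ID2, ID4, SMAD9 and FST, and INHBA, INHBB and GREM1 lie below a value of 1 in every library.

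Among TGF-beta and activin ligands, TGFB1, the main isoform of epithelium, was at 99.3, 82.98 and 78.51. In limma its mean difference was -0.30 (SE 0.248, unadjusted p = 0.279, adjusted p = 1). TGFB2 was at 2.72, 2.67 and 1.74, and TGFB3 at 2.46, 2.61 and 1.44. The latter 2 were near the control in knockdown 1 and lowest in knockdown 2. The activin subunit genes INHBA (0.61, 0.26 and 0.24) and INHBB (0, 0 and 0.25) were below 1 in every library and were not tested. LTBP1, which keeps TGF-beta latent in the matrix, was at 2.51, 1.68 and 2.32.

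The BMP ligands were at or above the control, except BMP4 in knockdown 1. BMP2 was at 1.42, 2.59 and 3.76, and both knockdown libraries lay above the control. Its limma difference was 0.77 (SE 0.353, unadjusted p = 0.0717, adjusted p = 1). BMP4, its close relative, was at 1.89, 1.84 and 4.3, higher in knockdown 2 only. BMP7, a BMP of kidney and epithelia, was at 21.13, 25.85 and 22.64.

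Among secreted antagonists, FST, which encodes the activin-binding protein follistatin, was at 37.58, 26.98 and 14.27. Both knockdown values lay below the control, and that of knockdown 2 was the lower. The limma difference was -0.90 (SE 0.39, unadjusted p = 0.0609, adjusted p = 1), made up of -0.46 in knockdown 1 and -1.34 in knockdown 2. The squamous markers summed to 5455.2, 5156.62 and 3472.09 in the same order of libraries, and their part in the lower FST value was not tested. NOG, the BMP-binding antagonist noggin, was at 1.8, 2.11 and 1.61. GREM1, another BMP antagonist, was at 0.02, 0 and 0.01 and was not tested.

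Most receptor genes lay near the control. TGFBR2, the type II receptor that binds TGF-beta first, was at 37.28, 35.9 and 30.01, and its type I partner TGFBR1 at 2.68, 2.37 and 2.78. The co-receptor TGFBR3 was at 1.62, 1.2 and 1.72. The activin receptors were close to the control in knockdown 1: ACVR1B was at 12.27, 11.74 and 12.85, ACVR2A at 1.33, 1.36 and 1.54, and ACVR2B at 1.15, 1.01 and 2.07. Of the BMP receptors, BMPR1A was at 7.66, 8.11 and 6.41, BMPR1B at 2.56, 2.17 and 2.47, BMPR2 at 3.86, 3.72 and 2.95, and ACVR1 at 5.25, 5.06 and 3.89. All 4 were lowest in knockdown 2 except BMPR1B, which was lowest in knockdown 1. BAMBI, a pseudoreceptor without a kinase domain that damps the signal, was at 22.45, 20.47 and 33.8, below the control in knockdown 1 and above it in knockdown 2 (limma difference 0.22, SE 0.342, unadjusted p = 0.542, adjusted p = 1); without knockdown 2 the difference is -0.13.

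SMAD6 and SMAD1 had similar values in both knockdown libraries and another in the control. SMAD6, which inhibits BMP receptor signalling and is itself a BMP target, was at 7.49, 12.29 and 11.95. Its limma difference was 0.63 (SE 0.234, unadjusted p = 0.037, adjusted p = 1), and it was the 1 member at least 1.5-fold higher in both knockdown libraries, as were 0.525% of all genes, while 0 members were 1.5-fold lower in both, beside 0.752%. With median-of-ratios scaling SMAD6 was at 0.67 and 0.58, just short of 1.5-fold in knockdown 2, and BMP2 was the 1 member past it. With quantile normalization or a pseudocount of 0.1, both SMAD6 and BMP2 were past it. In limma without a variance trend the unadjusted p of SMAD6 was 0.0607 (adjusted p = 1). SMAD1, a receptor SMAD of the BMP branch, was at 20.89, 14.69 and 14.09, with a limma difference of -0.51 (SE 0.235, unadjusted p = 0.0737, adjusted p = 1). For both genes the knockdown libraries lay close together and apart from the control.

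The other BMP-branch SMADs did not follow SMAD1. SMAD5 was at 4.76, 4.08 and 4.93, and SMAD9 at 0.25, 0.37 and 2.28, the latter with a limma difference of 0.76 (SE 0.658, unadjusted p = 0.291, adjusted p = 1) made up of 0.13 in knockdown 1 and 1.39 in knockdown 2. With a pseudocount of 0.1 the mean difference of SMAD9 was 1.60, and that in knockdown 2 was 2.77. Of the TGF-beta branch, SMAD2 was at 6.85, 7.57 and 5.03 and SMAD3 at 22.28, 20.8 and 15.78. Both were lowest in knockdown 2. The shared partner SMAD4 was at 4.41, 3.87 and 3.77.

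The feedback inhibitor SMAD7, which acts on TGF-beta and BMP receptors alike, was at 4.78, 5.59 and 4.88, without the shift of SMAD6. The ubiquitin ligases SMURF1 (7.2, 6.9 and 5.71) and SMURF2 (10.34, 9.76 and 9.53) were slightly below the control in both knockdown libraries. Of the corepressors, SKI was at 10.09, 11.2 and 12.99, SKIL at 4.63, 3.61 and 3.24, and TGIF1 at 43.27, 40.82 and 35.56. SKI lay above the control and its relative SKIL below it in both knockdown libraries. Over the 37 members tested, 36 were within 1.5-fold of the control in knockdown 1 (97.3%, beside 95.7% of all genes) and 29 in knockdown 2 (78.4%, beside 86.4%).

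**Figure D3:**
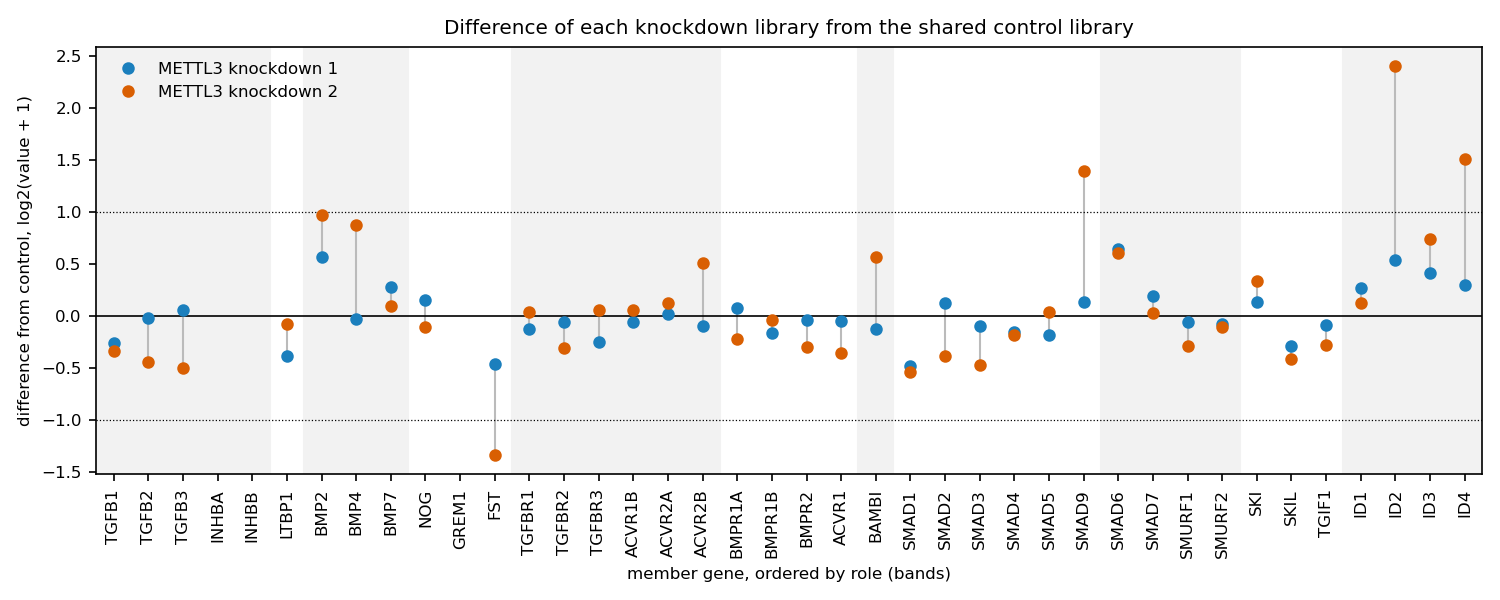
Difference of METTL3 knockdown 1 (blue) and METTL3 knockdown 2 (orange) from the shared control library on the log2(value + 1) scale (vertical axis) for the 37 members tested, with a line joining both libraries of a gene and dotted lines at a 2-fold difference; INHBA, INHBB and GREM1 have no point. SMAD6 and SMAD1 have nearly equal points, while ID2 (0.54 and 2.40), ID4, SMAD9 and FST differ most in knockdown 2.

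The m6A peak list held 68 peaks on 29 of the 40 members, and 28 members had a peak in a coding exon or untranslated region (UTR). Among the 37 members tested for expression these were 26 (70.3%), beside 42.4% of all genes tested. A peak of any class was on 27 of the 37 (73%), beside 52.4% of all genes tested. At least 2 such exon or UTR peaks were on 12 of the 37 (32.4%), beside 16.3% of all genes. The share with a peak differs with the expression value over the whole table: it was 10.3% of genes under 1 in the control, 46.1% from 1 to under 5, 48.6% from 5 to under 20 and 35.6% at 20 or more. For the members the counts in those ranges were 3 of 4, 11 of 17, 7 of 9 and 7 of 10. The list has no score or enrichment, so peaks are not ranked by strength, and it covers cells with normal METTL3 only, so it shows no effect of knockdown on m6A.

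By location class, 22 of the 68 peaks were in coding exons (32.4%, beside 34.1% of all peaks), 20 in 3′ UTRs (29.4%, beside 21.5%) and 9 in 5′ UTRs (13.2%, beside 11.6%). The class depends on the transcript that the annotation used. Deposited distances to a start fit the middle of each peak, so a peak at a short distance can span the start. The 3′ UTR peaks include those of SMAD6, with distances of 237 to 1316 bases from the start of that transcript. Introns held 7 (10.3%, beside 23.5%), regions upstream of a start 10 (14.7%, beside 7.84%), and 0 were downstream of a gene. Their median width was 304.5 bases, beside 315 for all peaks. Within 1000 bases of the annotated start were 22 of the 68 (32.4%), beside 22.3% of all peaks. The processing notes name hg38, but peak positions are not in that build: of 9023 exon or UTR peaks of genes in the RefSeq table only 10.6% overlap their own gene in GRCh38.p14 (5 of 51 for the members), and 16 peaks carry older contig names. Positions of peaks are given as deposited, in a build the sources do not name correctly, and cannot be set beside the GRCh38.p14 positions of the promoters. Sequence under the peaks is therefore not shown.

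The receptor BMPR2 carried the most peaks, 8, with 3 in coding exon sequence between chr2:203420018-203421056, separated by 81 to 101 bases. TGFBR2 had a 5′ UTR peak with its middle 34 bases from the annotated start and a coding exon peak, while TGFBR1 and TGFBR3 had none. ACVR1B had 2 peaks in the 3′ UTR and ACVR1 and BMPR1A 1 each there. BMPR1B and ACVR2A had 1 coding exon peak each, and ACVR2B none. BAMBI had a 5′ UTR peak with its middle 63 bases from its start and a coding exon peak.

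Of the ligands, TGFB1 had 1 peak, in the 5′ UTR at chr19:41859233-41859713, and TGFB2 had 4, of which 2 were in the 3′ UTR. TGFB3 and BMP2 had 3 each, BMP7 had 3 and BMP4 had 1. INHBB, listed at 0 in the control RNA-seq library, had a coding exon peak and a 3′ UTR peak, and INHBA, at 0.61 in the control, had 1 coding exon peak. Of the antagonists only NOG had a peak, in its coding exon, and FST and GREM1 had none.

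SMAD6 had 4 peaks in a stretch of 2078 bases at chr15:66994505-66996583, with gaps of 96 to 169 bases. The annotation puts 3 of them in a 3′ UTR and 1 in an intron, with distances of 237 to 1804 bases from the start of the transcript it used. SMAD3 had 3 peaks in its 3′ UTR among 6 in all, SKI had 3 in its 3′ UTR among 4, and SMAD7 had 2 in coding exons among 4. SMAD1 had 1, in the 5′ UTR at chr4:146402900-146403101, SMAD2 and SMAD9 had 1 coding exon peak each and SMAD5, SKIL and TGIF1 had 1 coding exon peak and 1 intron peak each. SMURF2 had 1 peak only, classed as upstream, with a distance of -21 and a width of 205 bases, so that it spans the annotated start. SMAD4 and SMURF1 had none. Among ID genes ID2 had 1 peak in the 3′ UTR, at chr2:8823842-8824158, and 1 upstream, and ID1, ID3 and ID4 had none.

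**Figure D4:**
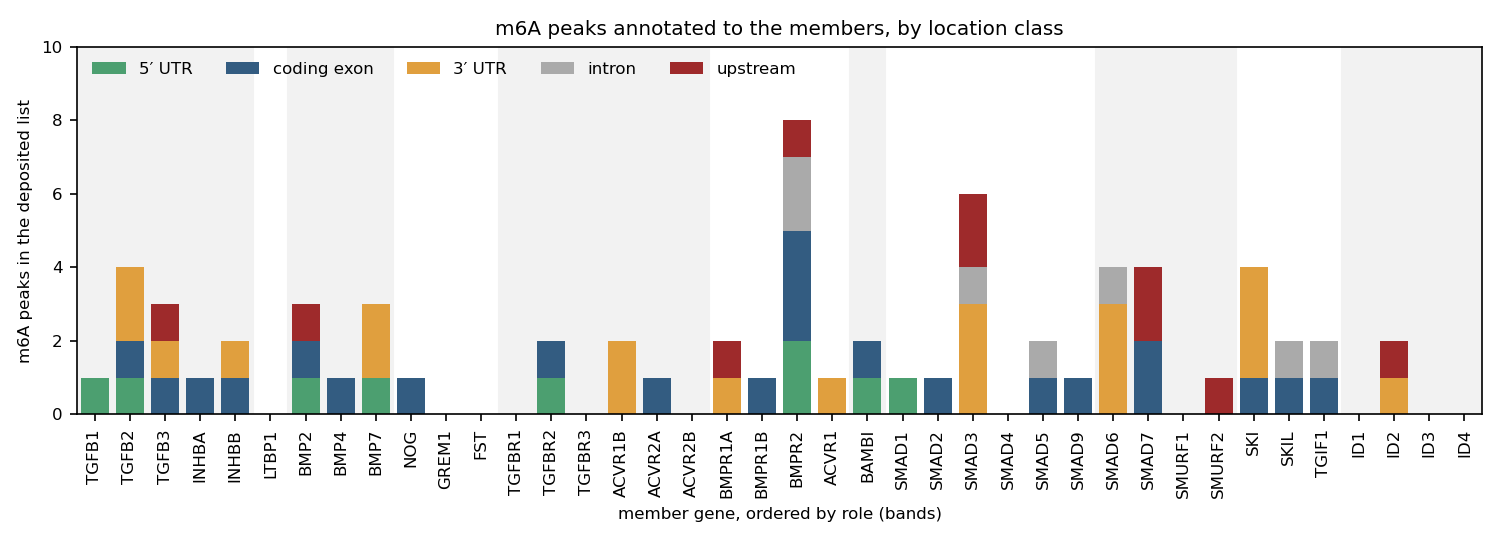
Number of m6A peaks in the deposited list (vertical axis) for each of the 40 members (horizontal axis, grouped by role in bands), coloured by the authors' location class (5′ UTR, coding exon, 3′ UTR, intron, upstream). BMPR2 has the most peaks (8) and SMAD3 the next most (6), while ID1, ID3, ID4, FST and 7 other members have none.

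Median differences were small in members with and without an exon or UTR peak. For the 26 tested members with such a peak the median difference was -0.02 in knockdown 1 and -0.07 in knockdown 2, and for the 11 without it -0.10 and 0.04. Over all genes these medians were -0.02 and -0.03 with a peak and -0.01 and 0.03 without. Of the ID genes and FST only ID2 had an exon or UTR peak. SMAD6, above the control, had 3 such peaks, and SMAD1, below it, had 1. Whether a peak goes with a difference was not tested.

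Of the known TGF-beta target genes more lay below than above the single control in knockdown 2, and no gene passed the test. Over all 12375 genes tested, 47.3% were higher and 52.1% lower in knockdown 1, and 50% higher and 49.7% lower in knockdown 2, which is the background for this and the following lists. Of 39 listed genes 33 were tested, with 17 higher and 15 lower in knockdown 1 (median difference 0.02) and 6 higher and 27 lower in knockdown 2 (median -0.56), beside all-gene medians of -0.01 and 0.00. In limma 0 of the 33 passed the adjusted test. The collagen-binding integrin gene ITGA2 was at 11.2, 7.04 and 4.6 (limma unadjusted p = 0.03, adjusted p = 1). The gelatinase gene MMP2 was at 36.08, 49.29 and 14.03 and the cadherin gene CDH2 at 14.24, 18.28 and 5.93. The protease inhibitor TIMP1 was at 181.73, 171.13 and 153.57. Higher by at least 2-fold in knockdown 2 were the intermediate filament gene VIM (87.02, 88.05 and 311.17) and CDKN2B (0, 0 and 1.1), named after its value was seen, which passed the filter only through that library.

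The counts of this list in knockdown 2 stand beside the lower squamous sum (3472.09 against 5455.2 in the control) and the higher embryonic kidney or cultured line sum (274.47 against 34.06) in that library. CDH2 is in the TGF-beta target list and in the embryonic kidney or cultured line list. The part of these sums in the target counts was not tested. In knockdown 1, with a squamous sum of 5156.62, ITGA2 differed from the control by -0.60, and MMP2 and CDH2 were above it.

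BMP target genes other than the 4 ID genes split by direction. The ID genes, all above the control in both knockdown libraries, are not in this list. Of 19 listed genes, 4 of which are members, 18 were tested, with 11 higher and 7 lower in knockdown 1 (median 0.10) and 9 higher and 9 lower in knockdown 2 (median 0.01, or -0.02 with median-of-ratios scaling and -0.01 with quantile normalization). MSX2, a homeobox gene induced by BMPs, was at 3.28, 7.08 and 10.2 (limma unadjusted p = 0.00836, adjusted p = 1), with both knockdown libraries above the control. Its relative MSX1 was at 0.26, 0.51 and 9.26, HEY1 at 7.57, 5.37 and 22.73, the netrin receptor gene UNC5B at 0.91, 1.38 and 4.24 and the alkaline phosphatase gene ALPL at 1.75, 1.08 and 6.52. These 4 were high in knockdown 2, and MSX1 passed the filter on low values only through that library. In knockdown 2, 5 of the 18 were at least 2-fold higher and 1 lower, beside 3.64% and 0.978% of all genes. Knockdown 1 had 0 in either direction. The embryonic kidney or cultured line sum was also higher in knockdown 2 (274.47 against 34.06 in the control), and its part in these counts was not tested. The NOTCH and BMP target HES1 was at 48.44, 40.66 and 48.02. SPP1, which encodes osteopontin and was named after its values were seen, was at 3.29, 1.31 and 0.85 (limma unadjusted p = 0.0365, adjusted p = 1).

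Among other ligands, receptors and secreted modulators no gene passed the test. Of 25 other ligands 7 were tested, with 4 higher and 3 lower in knockdown 1 (median 0.06) and 5 higher and 2 lower in knockdown 2 (median 0.80). Values included GDF11 at 21.64, 20.47 and 14.17 and GDF15 at 4.73, 5.37 and 3.89. BMP6 (0.22, 0.19 and 2.37) and AMH (0.05, 0.15 and 1.75) passed the filter only through knockdown 2. INHBE (0.62, 1.74 and 1.83), named after its values were seen, passed it only through the knockdown libraries. All of these are among the 5 higher in knockdown 2, so that count and median depend on the filter. Without the filter the medians of 22 ligands were 0 in knockdown 1 and 0.08 in knockdown 2. Of 6 other receptors and co-receptors tested, 0 were higher and 6 lower in knockdown 1 (median -0.23), and 3 were higher and 3 lower in knockdown 2 (median -0.02). The semaphorin receptor gene NRP1, whose product also binds TGF-beta, was at 16.76, 10.25 and 8.3 (limma unadjusted p = 0.0202, adjusted p = 1), the co-receptor gene RGMA at 8.02, 7.29 and 12.59, and AMHR2 at 0.16, 0 and 1.62. AMHR2 is 1 of the 3 that were higher in knockdown 2 and passed the filter only through that library. Of 14 other secreted modulators tested, 2 were higher and 12 lower in knockdown 1 (median -0.23) and 3 higher and 11 lower in knockdown 2 (median -0.54). Without the filter the medians of 25 modulators were -0.08 and -0.07. Some of these genes, THBS1 among them, are also in the TGF-beta target list and lower in both knockdown libraries. The counts of these lists are therefore not separate observations. The convertase gene FURIN, whose product cuts TGF-beta precursors, was at 65.68, 55.38 and 38.76, the TGF-beta activator THBS1 at 48.9, 44.12 and 25.65, and the BMP antagonist gene SOSTDC1 at 6.46, 3.84 and 0.85.

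Intracellular regulators had medians near 0. Of 26 SMAD regulators and cofactors tested, 16 were higher and 9 lower in knockdown 1 (median 0.08) and 11 higher and 15 lower in knockdown 2 (median -0.11). FKBP1A, which keeps type I receptors inactive, was at 215.21, 233.78 and 250.66, and the ubiquitin ligase STUB1 at 151.26, 150.84 and 132.02. The coactivator CITED1 was at 0, 0.18 and 11.85 and passed the filter only through knockdown 2. Of 15 non-SMAD kinases and partners, 6 were higher and 9 lower in each knockdown library (medians -0.06 and -0.06), with RHOA at 307.29, 349.83 and 385.56 and the phosphatase subunit PPP2R1A at 61.59, 79.13 and 90.35.

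**Figure D5:**
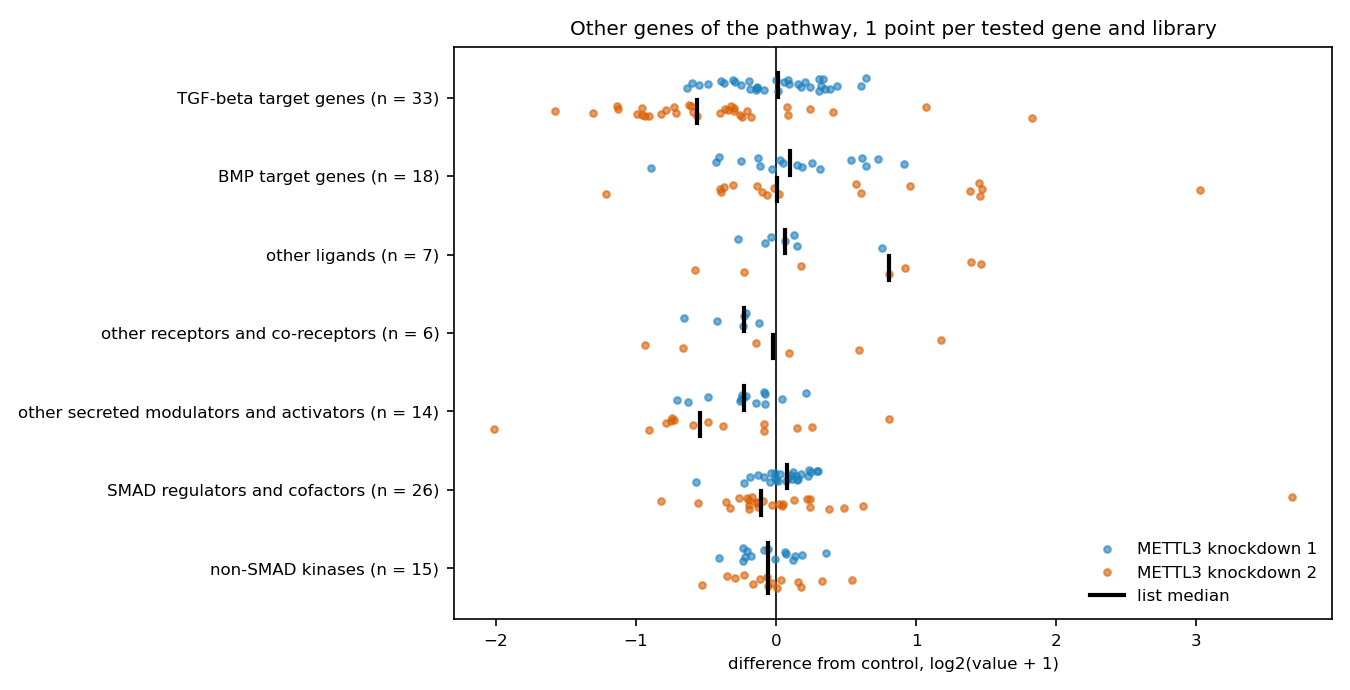
Difference from the control on the log2(value + 1) scale (horizontal axis) of the tested genes of 7 further pathway lists (vertical axis, with the number of genes), 1 point per gene in METTL3 knockdown 1 (blue) and METTL3 knockdown 2 (orange), with black bars at the list medians. The TGF-beta target list has its median at 0.02 in knockdown 1 and at -0.56 in knockdown 2, and the points far to the right are CITED1 and MSX1 in knockdown 2.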

How the data were processed

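Reads were processed by the authors with TopHat2 and HTSeq, and peaks called with MACS2, per the submitters' processing notes, which here carry no versions or settings. The deposited RNA-seq values are an expression signal with 2 decimals and no stated unit, whose columns sum to 608290.95, 617840.36 and 627152.03, so depth is unknown and no counting interval is given. The deposited peak list gives position, gene and location class and no other measure.

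Values were transformed to log2(value + 1). A gene was tested if any library reached 1 (12375 genes), using limma 3.58.1 in R 4.3.3 (empirical Bayes variances with a trend on the mean) and a Benjamini-Hochberg threshold of 0.05. The script was tested on simulated data. Symbols were used as listed; 2 pathway genes were found by older symbols, and 25 rows had a symbol turned into a date. Full limma statistics follow a rule (at least 2-fold in a knockdown library, or 1.5-fold one way in both), which took FST, SMAD9, SMAD6, ID2 and ID4; those of ID1, ID3, BMP2, SMAD1, TGFB1 and BAMBI were added after their values were seen. For each further list the text names the 2 genes with the highest mean and up to 5 genes at least 2-fold from control. Some genes of the TGF-beta target list are not reported here by name. The members and lists were chosen with earlier results of these data known. Counts and plots were made in Python 3.11.15 (pandas 2.3.3, matplotlib 3.10.9).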

Additional observations from a re-analysis of the deposited data

How the results depend on the processing

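The count of genes past limma's adjusted threshold was 0 with a pseudocount of 0.1, no filter on low values, a mean of at least 5, quantile normalization, median-of-ratios scaling and no trend, while genes with an unadjusted p under 0.05 numbered from 123 (no trend) to 444 (no filter). The members at least 2-fold from the control numbered 0 in knockdown 1 under each of these settings that applies to it, and in knockdown 2 from 3 (mean of at least 5, where 20 members were tested) to 6 (pseudocount of 0.1) in place of 4. The median mean difference of the members, -0.076, was -0.086 with a pseudocount of 0.1, -0.083 with quantile normalization and -0.037 with a mean of at least 5, and it was -0.045 without knockdown 2 and -0.037 without knockdown 1, values with no test. BAMBI, at a mean difference of 0.22, was at -0.13 without knockdown 2 and 0.57 without knockdown 1. The other 10 members with limma statistics kept their sign in each setting in which they were tested; SMAD9 and BMP2 had no value with a mean of at least 5. Members with an unadjusted p under 0.05 in limma numbered 0 (no trend) to 3 (no filter). Members with an exon or UTR peak numbered 28, or 13 with at least 2 such peaks required. No paired analysis was possible because the single control library carries no hairpin number. With 1 control library, 1 residual degree of freedom and unknown depth, 0 of the 12375 genes tested passed, the target METTL3 among those not called. Differences larger than the spread of the knockdown libraries could therefore be missed too.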
